A study of Mus musculus with 9 samples.

Results

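Gene expression was compared between 2 short hairpin RNAs that target the same transcript, Brg1sh_4935 and Brg1sh_3232, in RN2 cells, a murine acute myeloid leukaemia line that carries the MLL-AF9 fusion and NrasG12D. The comparison rests on 4 of the 9 arrays of the series, chosen by their titles: 2 arrays of Brg1sh_4935 and 2 of Brg1sh_3232. The 3 arrays of Rluc, a hairpin against Renilla luciferase, serve as a reference level, and the 2 arrays of another Brg1 hairpin, Brg1sh_3364, enter the fit for the estimate of the spread and are given beside some results. In every group, the hairpin sat in the TRMPV vector and was induced with doxycycline at 1 ug/ml for 96 h in RPMI1640 medium with serum and antibiotics. The labels of the Rluc arrays give the cell line an extra term, TtTMPV, which those of the Brg1 hairpins lack, so a position relative to the control cannot be told apart from this difference in name. The labels do not say whether arrays of a group came from separate cultures, and p-values therefore measure only the spread between these arrays, which may be technical.

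Brg1, encoded by Smarca4, is an ATPase of the SWI/SNF chromatin remodelling complexes, which slide or evict nucleosomes and so alter access of transcription factors to promoters and enhancers. A short hairpin RNA is cut into a small RNA that guides Argonaute proteins to a matching transcript. Hairpins of different sequence against one gene are used side by side because each can also reach other transcripts through partial matches, and a change shared by several is less likely to come from one sequence. The series used 3 hairpins to study the genes downstream of Brg1, and setting one against another asks which genes differed between cells that share the intended target.

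Markers of the leukaemia were checked first, in log2 expression as deposited, and most were at high levels on all 4 arrays. Ptprc, the pan-leukocyte phosphatase CD45, lay between 12.45 and 12.59, Itgam between 13.29 and 13.34, and Myb between 13.29 and 13.36. Cebpa, a granulocyte-lineage factor, was lower, between 9.54 and 9.76. Markers of other cells were low: the T cell gene Cd3e lay between 6.87 and 7.17, the eosinophil gene Epx between 6.09 and 6.29, the plasmacytoid dendritic cell gene Siglech between 6.55 and 6.84, and the mast cell gene Ms4a2 between 6.85 and 7.45. In bulk RNA, fewer cells of a type and less RNA per cell cannot be told apart. Across all 34760 probe sets, Pearson's r was 0.9971 between the arrays of Brg1sh_4935, 0.9957 between those of Brg1sh_3232 and 0.9941 to 0.9953 across the hairpins.

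Smarca4, the target itself, did not differ between the hairpins past the test. Its probe set read 10.70 and 10.76 with Brg1sh_4935, and 10.67 and 10.90 with Brg1sh_3232. The arrays overlapped, and all 4 lay below the control mean of 11.79 ± 0.01 (SD, n = 3). The difference, Brg1sh_4935 minus Brg1sh_3232, was -0.05 (SE 0.07, 95% interval -0.21 to 0.11, adjusted p = 0.804), and it was 0.06 without Brg1sh_3232 replicate 2. Of 31 SWI/SNF subunits, Smarca4 included, limma called 0 at an adjusted p below 0.05. At an unadjusted p below 0.05, 7 were lower with Brg1sh_4935 and 0 higher, beside 2912 of all 19937 genes in either direction. The smallest adjusted p among the subunits, 0.173, belonged to Phf10, a subunit of the PBAF form of the complex, at -0.24. Smarca2, the alternative ATPase Brm, read 10.74 and 10.76 with Brg1sh_4935 against 10.98 and 10.92 with Brg1sh_3232 (-0.20, SE 0.07, adjusted p = 0.22).

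Of 19937 genes tested, 204 differed between the hairpins at a Benjamini-Hochberg adjusted p below 0.05 in limma's fit of all 9 arrays, which is 1.02% of the genes; 2912 had an unadjusted p below 0.05. With Brg1sh_4935, 122 were higher (0.612%) and 82 lower (0.411%). All 204 had fully separated arrays, meaning that both arrays of one hairpin lay above both of the other, but so did 41.4% of all genes. Full separation was therefore common without a call, and 2 arrays against 2 allow no exact permutation p below 0.333 (two-sided, 6 splits). A call together with full separation and a log2 difference of at least 1 was met by 17 genes (0.0853%), 15 higher (0.0752%) and 2 lower (0.01%) with Brg1sh_4935. At a limit of 0.5 in place of 1, 70 were higher (0.351%) and 31 lower (0.155%). The median absolute difference was 0.50 among the called genes and 0.06 among all genes. In the same fit, 1518 genes (7.61%) were called between Brg1sh_4935 and Brg1sh_3364, and 1925 (9.66%) between Brg1sh_3232 and Brg1sh_3364. These comparisons share arrays with each other.

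**Figure D1:**
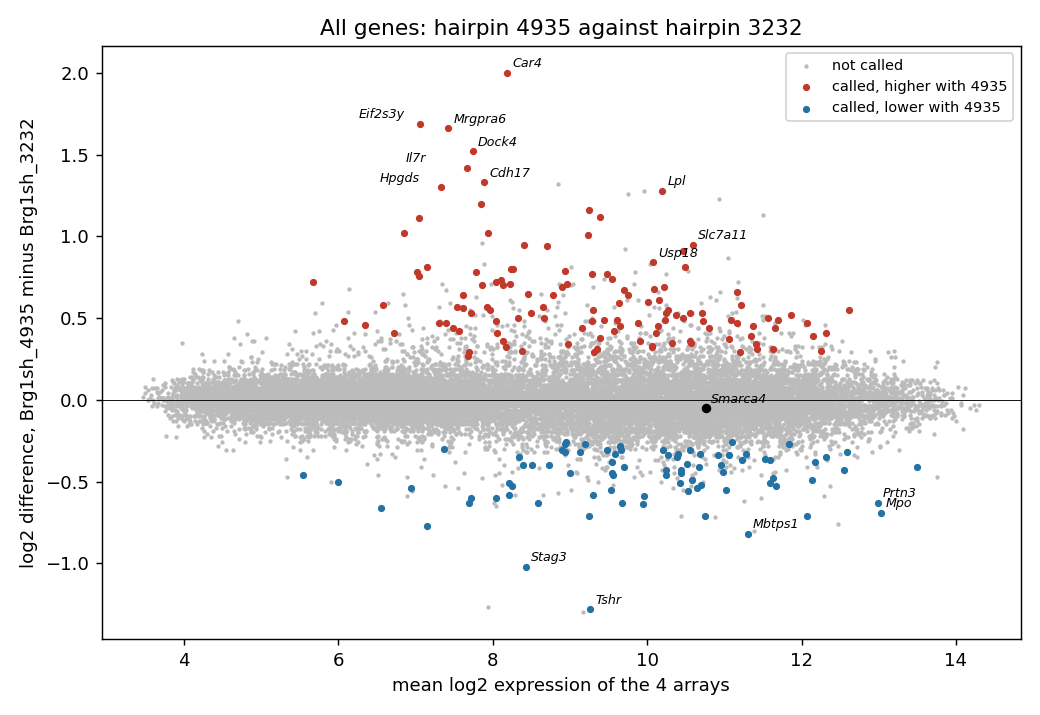
Log2 difference between the hairpins (vertical axis, Brg1sh_4935 minus Brg1sh_3232) against the mean log2 expression of the 4 arrays (horizontal axis), 1 point per gene for 19937 genes. Red points are the 122 genes called higher with Brg1sh_4935, blue points the 82 called lower, grey points the rest, and the black point is Smarca4 at -0.05.

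The number of called genes depended strongly on single arrays. It was 8 without Brg1sh_4935 replicate 1, 10 without replicate 2, 19 without Brg1sh_3232 replicate 1 and 65 without replicate 2. It was 116 without Rluc replicate 2 and 467 without Rluc replicate 3, through the estimate of the spread alone. A fit on the 4 arrays by themselves, with 2 residual degrees of freedom, called 0 genes in limma, while 3157 had an unadjusted p below 0.05. The called genes that remained without each of the 9 arrays in turn were 6: Car4, Eif2s3y, Dock4, Hpgds and Rasgef1b, higher with Brg1sh_4935, and Mbtps1, lower. Car4 and Mbtps1 kept their call in 20 of 21 alternative settings, all but the 4-array fit. The other 4 kept it in 19 of 20, again without that fit, and were not tested where genes below the median level were left out. These 6 are described first.

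**Figure D2:**
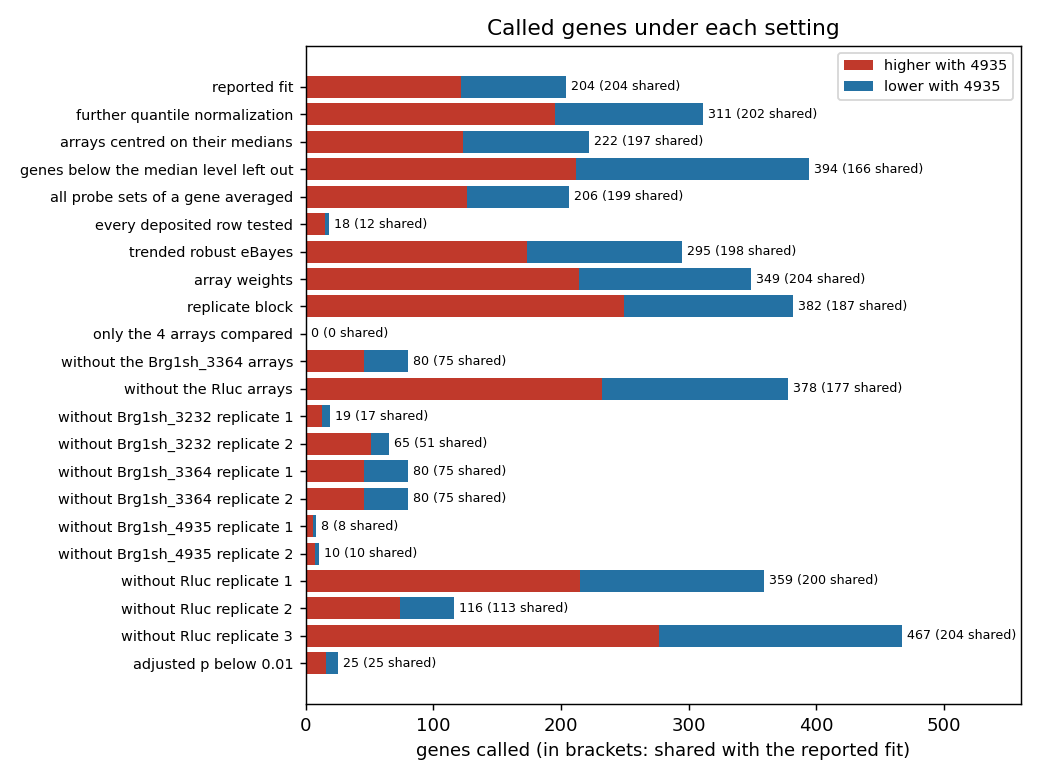
Number of called genes (horizontal axis) under the reported fit and each alternative (vertical axis), split into genes higher (red) and lower (blue) with Brg1sh_4935. The figures beside the bars give the total and, in brackets, how many are among the 204 of the reported fit, which ranged from 0 in the 4-array fit to 204.

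Car4, a carbonic anhydrase anchored to the outer cell membrane, showed the largest difference. Its log2 expression was 9.16 and 9.22 with Brg1sh_4935, and 6.99 and 7.39 with Brg1sh_3232. The pairs were far apart, and both lay below the control mean of 11.70 ± 0.09 (SD, n = 3). The difference was 2.0 (SE 0.12, adjusted p = 0.00082), or 3.99-fold. Leaving out single arrays gave 1.80 to 2.20, with adjusted p up to 0.0281. It was the 1 called gene of 15 carbonic anhydrases on the array, beside 0.612% of all genes called higher, and the median of the family was 0.03.

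Eif2s3y, the Y-linked copy of a subunit of translation initiation factor eIF2, read 7.90 and 7.90 with Brg1sh_4935 against 6.02 and 6.40 with Brg1sh_3232. The control mean was lower still, at 4.91 ± 0.15 (SD, n = 3), and Brg1sh_3364 was highest, with a mean of 9.29. The difference was 1.69 (SE 0.12, adjusted p = 0.00154). It was the 1 called gene of 7 Y-linked genes on the array, beside 0.612% of all genes called higher. Kdm5d, a histone demethylase, read 9.88 and 9.86 against 9.69 and 9.79, and its difference of 0.12 had an adjusted p of 0.646. Uty, another Y-linked gene, differed by 0.06 (adjusted p = 0.885).

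Dock4, which activates the small GTPases Rac and Rap, read 8.34 and 8.66 with Brg1sh_4935, and 6.97 and 6.99 with Brg1sh_3232. The control mean of 6.55 ± 0.03 (SD, n = 3) and the Brg1sh_3364 mean of 6.77 were closer to Brg1sh_3232. Its difference was 1.52 (SE 0.10, adjusted p = 0.00082). Rasgef1b, an exchange factor for Ras family GTPases, had the same arrangement at a lower level. It read 7.26 and 7.45 against 6.34 and 6.34, beside 6.32 with Brg1sh_3364 and 6.15 in the control (1.02, SE 0.08, adjusted p = 0.00209). Hpgds, the haematopoietic prostaglandin D synthase, read 7.86 and 8.09 against 6.54 and 6.82, with a control mean of 6.24 ± 0.03 (SD, n = 3). Its difference was 1.30 (SE 0.10, adjusted p = 0.00209).

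Mbtps1, the site-1 protease that cleaves SREBP and ATF6 precursors in the Golgi, was the 1 lower gene that kept its call without each array. It read 10.94 and 10.84 with Brg1sh_4935, and 11.73 and 11.70 with Brg1sh_3232, and the control mean of 11.37 ± 0.04 (SD, n = 3) lay between. The difference was -0.82 (SE 0.05, adjusted p = 0.00082), or 1.77-fold lower. Members of a list of cholesterol and fatty acid synthesis genes, many of which SREBP factors control, were counted beside it. Of 28 measured, 1 was called, lower, beside 0.411% of all genes. This was Fasn, the fatty acid synthase, at 11.04 and 11.06 against 11.43 and 11.41 (-0.37, SE 0.04, adjusted p = 0.0107). Unlike that of Mbtps1, its control mean, 11.67, lay above both hairpins. Without Brg1sh_4935 replicate 1, the adjusted p of Fasn was 0.123. Arrays were fully separated downward for 15 of the 28 and upward for 1, beside 22.3% and 19.1% of all genes, with a median of -0.10. The mean log2 expression of the 28 was 10.49 and 10.47 with Brg1sh_4935 and 10.62 and 10.56 with Brg1sh_3232. In the control it was higher, 10.86 to 11.03. A link between Mbtps1 and these genes was not tested. A list of integrated stress and unfolded protein response genes, which holds ATF6 targets, had a median at 0.00. Of its 34 genes, 1 was called, higher, beside 0.612% of all genes. That member was Slc7a11, the cystine transporter xCT, higher at 11.08 and 11.04 against 10.04 and 10.19 (0.95, SE 0.17, adjusted p = 0.0454; 0.265 without Brg1sh_4935 replicate 1).

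The remaining 10 large genes on the higher side passed the fit of all arrays and lost the call without at least 1 array. Mrgpra6, an orphan receptor of the Mas-related family, read 8.18 and 8.32 with Brg1sh_4935, and 6.45 and 6.72 with Brg1sh_3232 (1.66, SE 0.24, adjusted p = 0.0185). Il7r, the alpha chain of the interleukin-7 receptor, read 8.41 and 8.35 against 6.59 and 7.34 (1.42, SE 0.19, adjusted p = 0.0158). The arrays of Brg1sh_3232 disagreed for Il7r by more than those of Brg1sh_4935, and the difference was 1.05 without its replicate 1. Rgs1, an inhibitor of chemokine receptor signalling, had the same spread, at 8.45 and 8.46 against 6.85 and 7.65 (1.20, SE 0.22, adjusted p = 0.0439), and its difference was 0.80 without Brg1sh_3232 replicate 1. Anpep, the aminopeptidase CD13 of myeloid cells, read 8.44 and 8.45 against 7.15 and 7.71 (1.02, SE 0.15, adjusted p = 0.0218). The highest adjusted p on leaving out an array was 0.219 for Mrgpra6, 0.174 for Il7r, 0.261 for Rgs1 and 0.222 for Anpep, each without Brg1sh_4935 replicate 2.

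Cdh17, a cadherin best known from the intestine, read 8.50 and 8.61 against 7.19 and 7.26, beside a control mean of 7.18 (1.33, SE 0.15, adjusted p = 0.00782). Lpl, lipoprotein lipase, read 10.81 and 10.86 against 9.42 and 9.68, with the control between at 10.09 ± 0.33 (SD, n = 3; 1.28, SE 0.18, adjusted p = 0.0173). Slc24a3, a sodium, potassium and calcium exchanger, read 9.79 and 9.87 against 8.54 and 8.79 (1.16, SE 0.17, adjusted p = 0.0179). These 3 genes had gaps between replicates of 0.26 or less within both hairpins. Emp1, an epithelial membrane protein, read 9.95 and 9.95 against 8.55 and 9.12 (1.12, SE 0.20, adjusted p = 0.0439), and Cyp11a1, the enzyme that opens steroid synthesis, 7.53 and 7.66 against 6.22 and 6.75 (1.11, SE 0.16, adjusted p = 0.0199). Without Brg1sh_4935 replicate 2, the adjusted p was 0.131 for Cdh17, 0.201 for Lpl, 0.206 for Slc24a3, 0.26 for Emp1 and 0.222 for Cyp11a1. Cxcl10, the last of the 15, is described with the interferon genes.

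The 2 large genes on the lower side were Tshr and Stag3. Tshr, the thyrotropin receptor, read 8.66 and 8.59 with Brg1sh_4935, and 9.90 and 9.91 with Brg1sh_3232. Brg1sh_3232 was close to Brg1sh_3364 at 9.75, and the control was higher, at 10.87 ± 0.47 (SD, n = 3). The difference was -1.28 (SE 0.23, adjusted p = 0.0426), and the adjusted p was 0.261 without Brg1sh_4935 replicate 2. Stag3, a cohesin subunit of meiosis, read 7.89 and 7.96 against 8.82 and 9.06 (-1.02, SE 0.13, adjusted p = 0.0122), with 8.55 for Brg1sh_3364 and 8.57 in the control. Without Brg1sh_4935 replicate 1, its adjusted p was 0.154.

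**Figure D3:**
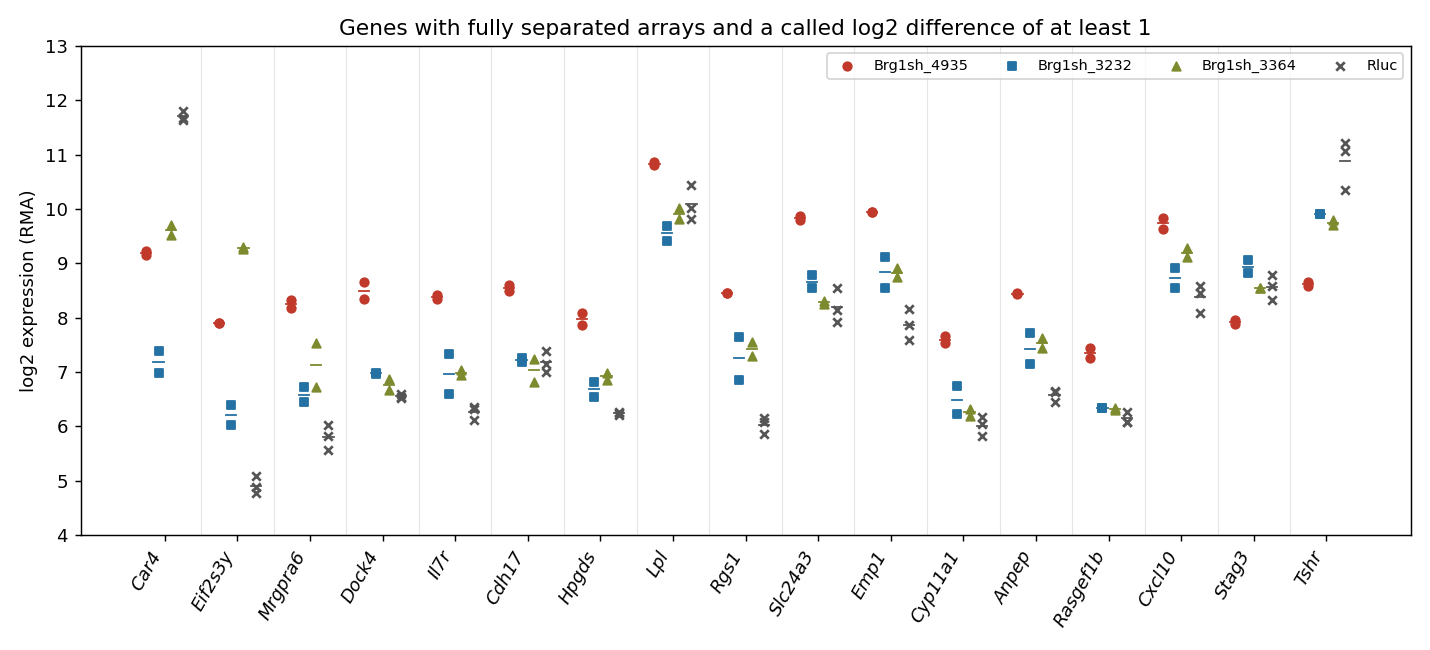
Log2 expression (vertical axis) on every array for the 17 genes that were called, fully separated and at least 1 apart on the log2 scale, ordered by the difference. Points are single arrays and short lines group means. Red circles are Brg1sh_4935, blue squares Brg1sh_3232, green triangles Brg1sh_3364 and grey crosses the Rluc control. Car4 has its control arrays above both hairpins, near 11.70.

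Just inside the limit of 1 stood Cxcl10 at 1.01, and just outside it Slc7a11 and C1qb at 0.95. A further 7 genes were fully separated and at least 1 apart but not called, and they are named here after their values were seen. Higher with Brg1sh_4935 were Tnip3 (1.32), Gem (1.28), Havcr2 (1.26), Dab2 (1.23) and C3ar1 (1.13), and lower were Gm10874 (-1.30) and Snora33 (-1.27). Their adjusted p ran from 0.0524 for Havcr2 to 0.119 for Gm10874. Havcr2, the immune checkpoint receptor Tim-3, read 10.34 and 10.43 against 8.96 and 9.28, with a control mean of 7.31. No gene with a difference of at least 1 had overlapping arrays (0 genes).

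The control and the third hairpin place these differences. For 13 of the 15 large genes on the higher side, the control mean lay below both hairpins, so that Brg1sh_4935 stood farther from the control. It lay between the hairpins for Lpl and above both for Car4, for which Brg1sh_3232 stood farther from the control. Among the 122 genes called higher, the control lay below both hairpins for 68, between them for 41 and above both for 13. Among the 82 called lower, it lay above both for 47, between for 30 and below both for 5. Over all 19937 genes, the control lay below both hairpins for 7746, between them for 4914 and above both for 7277. The mean of Brg1sh_3364 was nearer to Brg1sh_3232 than to Brg1sh_4935 for 13 of the 15 large higher genes, for 68 of the 122 called higher, and for 34 of the 82 called lower. Over all 204 it was nearer to Brg1sh_3232 for 102 and to Brg1sh_4935 for 101. The genes were selected by the values of Brg1sh_4935 and Brg1sh_3232, which also enter these positions, so the counts are a description only. The arrays of Brg1sh_3232 also differed more from each other in these 15 genes, with a median gap of 0.36, than those of Brg1sh_4935, with 0.07. Over all genes the median gaps were 0.07 and 0.05. Replicate 1 was the lower of its pair in 14 of the 15 for Brg1sh_3232, and likewise in 14 for Brg1sh_4935. Over all 19937 genes, it was the lower in 10233 for Brg1sh_3232 and in 7572 for Brg1sh_4935. Without Brg1sh_3232 replicate 1, 7 genes were large and called.

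Primary granule genes encode the antimicrobial proteins that promyelocytes pack into azurophil granules. The gene lists were chosen with earlier results of these data known, so list shares beside those of all genes are a description only. Of 12 granule genes measured, 3 were called, all lower with Brg1sh_4935 (background 0.411%). The arrays were fully separated downward for 10 and upward for 1, beside 22.3% and 19.1% of all genes, and the median was -0.35 against 0.00 for all genes. Mpo, myeloperoxidase, read 12.73 and 12.63 with Brg1sh_4935, and 13.36 and 13.38 with Brg1sh_3232 (-0.69, SE 0.07, adjusted p = 0.00581). Prtn3, proteinase 3, read 12.69 and 12.65 against 13.30 and 13.30 (-0.63, SE 0.07, adjusted p = 0.0106). Elane, neutrophil elastase, read 13.29 and 13.29 against 13.66 and 13.74 (-0.41, SE 0.07, adjusted p = 0.0325). The hairpins did not overlap, as in every called gene, and the control was above both for each of these, at 13.81, 13.50 and 13.83. Brg1sh_3364 lay near Brg1sh_4935, at 12.74 for Mpo, 12.86 for Prtn3 and 13.37 for Elane. Cst7, the inhibitor cystatin F, was at -0.43 (adjusted p = 0.0604), Ms4a3 at -0.26 (0.0616) and Ctsg, cathepsin G, at -0.21 (0.101), without a call. Ctsc, the peptidase that activates these proteases, was at 0.06 (adjusted p = 0.744).

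The calls of the granule genes were lost on leaving out arrays while the sizes stayed. Without single arrays the difference of Mpo ran from -0.74 to -0.64, with an adjusted p of 0.113 without Brg1sh_4935 replicate 2. That of Prtn3 ran from -0.65 to -0.61, with 0.141, and that of Elane from -0.45 to -0.37, with 0.235. The count of called members was 0 without Brg1sh_4935 replicate 1, Brg1sh_4935 replicate 2 or Brg1sh_3232 replicate 1, 1 without Brg1sh_3232 replicate 2, and 7 without Rluc replicate 3. Within the list, the mean log2 expression of the 12 genes was 12.04 and 12.03 with Brg1sh_4935, 12.32 and 12.39 with Brg1sh_3232, and 12.57 to 12.81 in the control. Late neutrophil genes, which are switched on after the primary granule stage, had 1 of 27 called, higher (background 0.612%), and a median at 0.00. That member was Cxcr2, described below.

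The stretches upstream of the 3 called granule genes are shown because they moved together and share a short motif. Each covers the 250 bases before the gene start in RefSeq, build GRCm38.p6, 5′ to 3′ along the gene. The capitals mark the letters GAGGAAGT, a core bound by PU.1, the myeloid factor encoded by Spi1; the motif was chosen after the sequences were seen. Mpo is at chr11:87793534-87793783, Prtn3 at chr10:79879417-79879666 and Elane at chr10:79886062-79886311, all on the + strand.
Mpo: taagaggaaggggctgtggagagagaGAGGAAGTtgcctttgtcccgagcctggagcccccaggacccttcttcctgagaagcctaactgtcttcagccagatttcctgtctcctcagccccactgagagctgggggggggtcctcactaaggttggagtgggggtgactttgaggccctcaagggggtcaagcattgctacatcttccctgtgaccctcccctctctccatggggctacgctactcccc
Prtn3: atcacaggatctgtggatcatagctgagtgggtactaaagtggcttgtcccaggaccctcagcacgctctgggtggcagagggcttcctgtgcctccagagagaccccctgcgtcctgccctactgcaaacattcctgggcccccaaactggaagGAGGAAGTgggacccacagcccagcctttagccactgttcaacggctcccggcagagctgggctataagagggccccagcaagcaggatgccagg
Elane: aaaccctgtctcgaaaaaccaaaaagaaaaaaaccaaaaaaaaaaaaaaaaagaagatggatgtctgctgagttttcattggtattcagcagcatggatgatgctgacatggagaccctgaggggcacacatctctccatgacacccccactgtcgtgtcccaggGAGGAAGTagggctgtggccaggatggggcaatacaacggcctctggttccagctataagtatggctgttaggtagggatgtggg
The matches begin 224, 95 and 85 bases before the start. Windows of 250 bases before to 50 after the start were searched on both strands (reverse letters ACTTCCTC). The core was in 3.2% of all 32851 windows and in 4 of 12 windows of the granule list, which stand for 10 genes. The 3 genes shown are among those with a match and were the reason for choosing the motif, so the share in the list cannot be read against that of all windows. Spi1 itself lay between 12.96 and 13.15 on the 4 arrays, and the match is a description of the letters only.

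Interferon-stimulated genes encode antiviral effectors and their regulators. Of 38 measured, 5 were called, all higher with Brg1sh_4935 (background 0.612%). The arrays were fully separated upward for 18 and downward for 6, beside 19.1% and 22.3% of all genes. The median was 0.09 against 0.00 for all genes. Cxcl10, a chemokine that attracts T cells, read 9.64 and 9.84 with Brg1sh_4935, and 8.55 and 8.91 with Brg1sh_3232 (1.01, SE 0.17, adjusted p = 0.0308). Usp18, the protease that removes ISG15, read 10.45 and 10.56 against 9.50 and 9.83, above a control mean of 7.88 (0.84, SE 0.12, adjusted p = 0.0197). Oasl2, of the 2′-5′ oligoadenylate synthetase family, read 7.86 and 7.79 against 7.26 and 7.24 (0.57, SE 0.05, adjusted p = 0.00455). Their arrays were fully separated, as in every called gene, and among these genes Oasl2 had the closest replicates. Rsad2, the antiviral enzyme viperin, read 7.45 and 7.63 against 7.01 and 7.13 (0.47, SE 0.08, adjusted p = 0.0312). Irf9, the DNA-binding subunit of the interferon-activated complex ISGF3, read 10.69 and 10.77 against 10.30 and 10.45 (0.36, SE 0.07, adjusted p = 0.0473).

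Other members of the list were not called. Mx1 was at 0.05 (adjusted p = 0.947), Ifit3 at 0.04 (0.923) and Ifit2 at -0.19 (0.423), while Irf7 was at 0.39 (0.0854) and Ifit1 at 0.38 (0.0855). Oasl2 kept its call without 8 of the 9 arrays, with an adjusted p of 0.0714 without Brg1sh_4935 replicate 1. The highest adjusted p on leaving out an array was 0.26 for Cxcl10, 0.222 for Usp18, 0.243 for Rsad2 and 0.284 for Irf9, each without Brg1sh_4935 replicate 2. Irf9 kept its call without 1 of the 9 arrays and lost it with centred arrays. The count of called members was 0 without Brg1sh_4935 replicate 1, and 1 without Brg1sh_4935 replicate 2, without Brg1sh_3232 replicate 1 or without either array of Brg1sh_3364. It was 2 without Brg1sh_3232 replicate 2 and 3 without Rluc replicate 2. The mean log2 expression of the 38 genes was 9.01 and 9.04 with Brg1sh_4935, 8.78 and 8.92 with Brg1sh_3232, and 8.55 to 8.58 in the control.

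The upstream stretches of Cxcl10 and Rsad2 are shown because both hold the core of the interferon-stimulated response element, to which ISGF3 and other IRF proteins bind. The capitals mark that core, searched as 2 copies of GAAA with any 2 bases between them, or of TTTC where it is read on the other strand. They are the 250 bases before the RefSeq gene start, build GRCm38.p6, 5′ to 3′ along the gene, for Cxcl10 at chr5:92348890-92349139 and Rsad2 at chr12:26456453-26456702, both on the - strand.
Cxcl10: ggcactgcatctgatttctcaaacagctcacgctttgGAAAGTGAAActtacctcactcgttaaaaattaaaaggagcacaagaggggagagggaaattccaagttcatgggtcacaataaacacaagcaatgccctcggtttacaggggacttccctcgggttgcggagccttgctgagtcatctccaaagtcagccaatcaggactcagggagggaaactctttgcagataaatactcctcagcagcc
Rsad2: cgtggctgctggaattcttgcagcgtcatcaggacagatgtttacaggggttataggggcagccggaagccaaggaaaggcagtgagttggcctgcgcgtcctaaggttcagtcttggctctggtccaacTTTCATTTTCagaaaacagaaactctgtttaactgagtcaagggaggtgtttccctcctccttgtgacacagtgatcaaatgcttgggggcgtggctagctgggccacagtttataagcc
The matches begin 213 and 120 bases before the start. In windows of 250 bases before to 50 after the start, searched on both strands, the core was in 3.44% of all 32851 windows. It was in 17 of 38 windows (44.7%) of the interferon list, which stand for 28 genes, 16 of them with a match, whether or not they differed between the hairpins. The windows of Oasl2 and Irf9 held no match, which says only that these letters are not there.

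**Figure D4:**
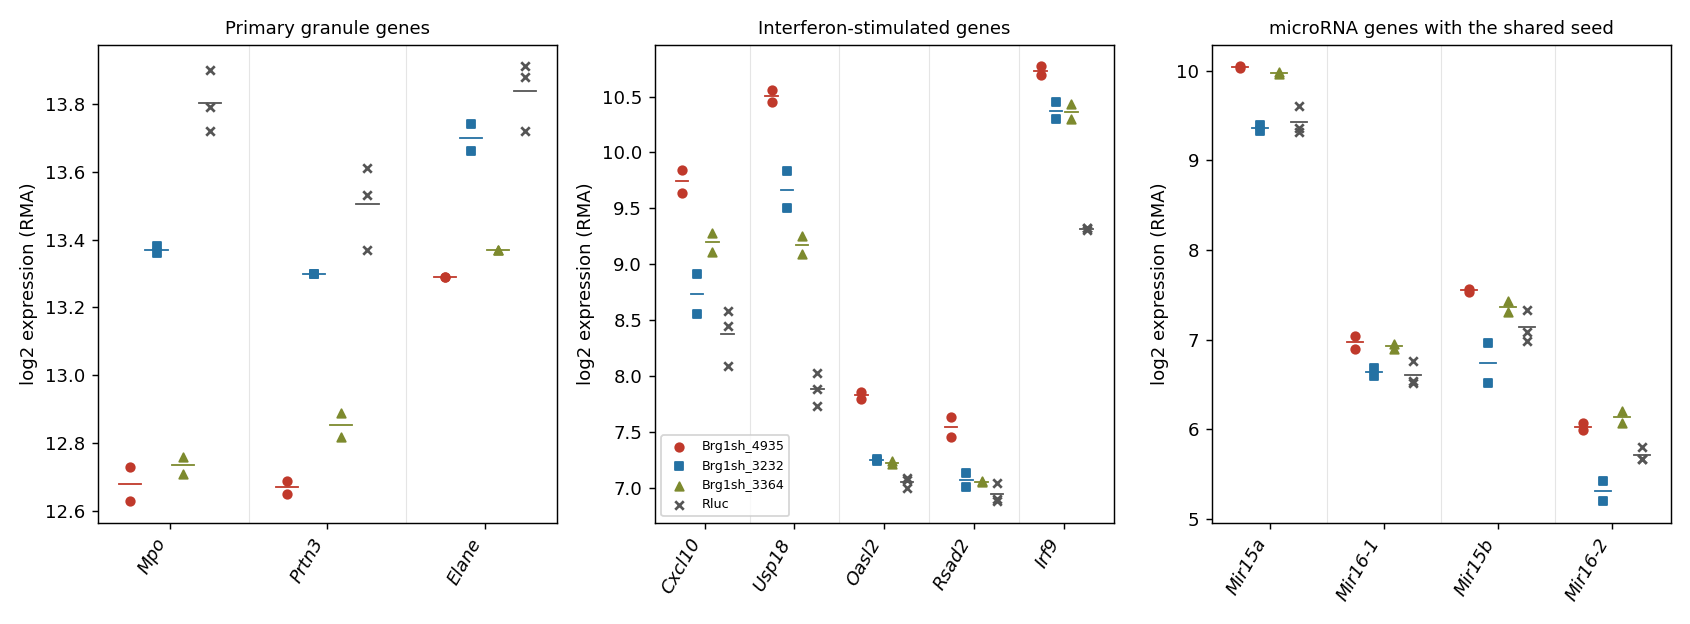
Log2 expression (vertical axis) on every array for 3 called primary granule genes, 5 called interferon-stimulated genes and 4 microRNA genes of one seed. Points are single arrays and short lines group means. Red circles are Brg1sh_4935, blue squares Brg1sh_3232, green triangles Brg1sh_3364 and grey crosses Rluc. The Brg1sh_4935 arrays lie below those of Brg1sh_3232 in the first panel and above them in the others.

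Macrophage and monocyte markers had 4 of 44 called, all higher with Brg1sh_4935 (background 0.612%), with a median of 0.02. The arrays were fully separated upward for 17 and downward for 5, beside 19.1% and 22.3% of all genes. With centred arrays, these were 17 upward and 10 downward, beside 15.9% and 33.8% of all genes. The called markers were Lpl, given above, C1qb and C1qc, chains of the complement component C1q, and C5ar1, the receptor of the complement peptide C5a. C1qb read 8.75 and 9.0 with Brg1sh_4935 against 7.65 and 8.19 with Brg1sh_3232 (0.95, SE 0.18, adjusted p = 0.0474). C1qc read 7.41 and 7.42 against 6.54 and 6.74 (0.78, SE 0.09, adjusted p = 0.0106), whereas C1qa, the third chain, was at -0.04 (adjusted p = 0.871). C5ar1 read 9.59 and 9.58 against 8.98 and 9.07 (0.55, SE 0.05, adjusted p = 0.0049). Defining macrophage genes were not called. Csf1r, the receptor of macrophage colony-stimulating factor, read 12.02 and 11.98 against 11.94 and 12.04 (0.01, SE 0.05, 95% interval -0.10 to 0.13, adjusted p = 0.96), and Adgre1, the F4/80 antigen, was at 0.01 (adjusted p = 0.963). Csf1r was at -0.04 without Brg1sh_3232 replicate 1. The adjusted p reached 0.293 for C1qb, 0.141 for C1qc and 0.0811 for C5ar1 without Brg1sh_4935 replicate 2, and the count of called markers was then 0.

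Receptors for chemokines, complement and formyl peptides, which steer leukocyte migration, had 2 of 16 called, both higher (background 0.612%). Besides C5ar1 this was Cxcr2, the receptor for neutrophil-attracting chemokines, at 10.10 and 10.05 against 9.40 and 9.47 (0.64, SE 0.06, adjusted p = 0.00455). The arrays were fully separated upward for 10 of the 16 and downward for 0, beside 19.1% and 22.3% of all genes, and the median was 0.19. C3ar1, the receptor of the complement peptide C3a, had the widest difference of the list, 12.04 and 12.08 against 10.84 and 11.03 (1.13, SE 0.24), with an adjusted p of 0.0717. Cxcr2 kept its call without 7 of the 9 arrays, and its adjusted p was 0.0714 without Brg1sh_4935 replicate 1.

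Inflammatory cytokines and NF-kB targets had 2 of 33 called, both higher (background 0.612%). Ccl2, a monocyte-attracting chemokine, read 8.03 and 8.30 against 7.35 and 7.43 (0.78, SE 0.14, adjusted p = 0.046), and Il1rn, the interleukin-1 receptor antagonist, was at 0.31 (adjusted p = 0.0482), a call lost with centred arrays. The immediate early genes Jun and Dusp1 were also called higher. Jun, a subunit of the AP-1 factor, read 10.54 and 10.58 against 9.77 and 9.98 (0.69, SE 0.11, adjusted p = 0.0244), and Dusp1, a phosphatase of MAP kinases, 10.80 and 10.85 against 10.18 and 10.40 (0.53, SE 0.10, adjusted p = 0.0449). Egr1 was at 0.71 without a call (adjusted p = 0.0702). Tgfbr1, a kinase subunit of the TGF-beta receptor, read 11.85 and 11.76 against 11.29 and 11.33 (0.50, SE 0.06, adjusted p = 0.0115). The other called list members on the higher side were Eya1, a transcriptional coactivator (0.80, adjusted p = 0.0111), Ccng2, a cyclin of arrested cells (0.47, 0.0173), Pmaip1, the death protein Noxa (0.36, 0.0267), and Slc2a3, a glucose transporter (0.41, 0.0376). Each of these genes lost its call without at least 1 array, with adjusted p between 0.14 for Tgfbr1 and 0.288 for Ccl2 at the highest.

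On the lower side, antigen presentation genes had 2 of 16 called (background 0.411%). H2-Ab1, the beta chain of a class II molecule, read 7.28 and 7.57 with Brg1sh_4935 against 8.02 and 8.02 with Brg1sh_3232 (-0.60, SE 0.11, adjusted p = 0.0407). Psmb8, a subunit of the immunoproteasome that interferon also induces, was at -0.31 (SE 0.05, adjusted p = 0.0326). Hdc, the histidine decarboxylase of mast cells and basophils, read 10.19 and 10.25 against 10.63 and 10.70, below a control mean of 12.20 (-0.45, SE 0.08, adjusted p = 0.0433). It was the 1 called member of 22 mast cell, basophil and eosinophil genes (background 0.411%). The adjusted p was 0.247 for H2-Ab1 and 0.26 for Hdc without Brg1sh_4935 replicate 1, and 0.241 for Psmb8 without replicate 2.

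Further genes on the lower side belonged to no list. Rnf128, an E3 ubiquitin ligase, read 6.82 and 6.73 against 7.63 and 7.45 (-0.77, SE 0.08, adjusted p = 0.00636). Its control mean of 6.79 and Brg1sh_3364 mean of 6.81 lay near Brg1sh_4935, and Brg1sh_3232 stood above them. Papss2, which makes the sulfate donor PAPS, read 10.52 and 10.26 against 11.06 and 11.14 (-0.71, SE 0.09, adjusted p = 0.0115). Afap1, which binds actin filaments, read 8.92 and 8.87 against 9.55 and 9.66 (-0.71, SE 0.08, adjusted p = 0.00779). The pairs were fully separated, as in every called gene. Rmrp, the RNA of the RNase MRP enzyme, was at -0.71 (adjusted p = 0.0218), Endou at -0.66, Sec24d, a coat protein of vesicles leaving the endoplasmic reticulum, at -0.63, and B3gnt5, a glycosyltransferase of lactosylceramide, at -0.63. Bace1, a membrane protease that cleaves the amyloid precursor, read 10.69 and 10.80 against 11.27 and 11.32 (-0.55, SE 0.05, adjusted p = 0.00586), and kept its call without 8 of the 9 arrays. Dsp, desmoplakin, was at -0.55 (adjusted p = 0.00779), and Klrk1, the receptor NKG2D, at -0.54 (0.00913). Endou and Klrk1 were placed like Rnf128. Endou means were 6.22 with Brg1sh_4935, 6.88 with Brg1sh_3232, 6.16 with Brg1sh_3364 and 6.36 in the control. Those of Klrk1 were 6.66, 7.21, 6.52 and 6.52. Ppp1r14b, a phosphatase inhibitor, was at -0.56 by the probe set used and at -0.40 by its other one. The control mean lay above both hairpins for Papss2, Afap1, Sec24d, B3gnt5, Bace1 and Ppp1r14b, and between them for Rmrp and Dsp. Each gene of this paragraph lost the call without 1 array of Brg1sh_4935 or the other, with highest adjusted p from 0.0714 for Bace1 to 0.281 for Ppp1r14b, which also lost it with the replicate block.

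Of the leukaemia and progenitor regulators, 1 of 34 was called, Eya1, which was higher (background 0.612%). Its means were 8.64 with Brg1sh_4935 and 7.84 with Brg1sh_3232, beside 10.01 with Brg1sh_3364 and 6.39 in the control. Myc, Hoxa9, Meis1, Myb, Kit and Cebpa were not called. Myc, a transcription factor that drives growth, read 11.86 and 11.86 with Brg1sh_4935 against 12.05 and 12.23 with Brg1sh_3232, beside a control mean of 12.40 ± 0.06 (SD, n = 3). Its arrays separated, and the difference was -0.28 (SE 0.07, 95% interval -0.44 to -0.11, adjusted p = 0.112). Hoxa9 was at 0.18 (adjusted p = 0.241), Meis1 at 0.04 (0.893), Myb at -0.05 (0.657), Kit at -0.08 (0.581) and Cebpa at -0.16 (0.283). The myeloid integrin Itgam, at 13.32 and 13.29 against 13.31 and 13.34, differed by -0.02 (95% interval -0.13 to 0.09). The intervals bound the differences of Meis1 to -0.14 to 0.22 and of Kit to -0.20 to 0.05.

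In 3 lists of growth and synthesis genes limma called no member, and their fully separated members were mostly lower. DNA replication genes had 0 of 42 called and 10 lower at an unadjusted p below 0.05, and were separated downward for 27 and upward for 3, with a median of -0.09. Serine, folate and nucleotide synthesis genes had 0 of 26 called and 8 lower unadjusted, with 18 downward, 2 upward and a median of -0.11. Ribosome biogenesis factors had 0 of 42 called and 5 lower unadjusted, with 19 downward and 6 upward. The same fully separated shares over all genes were 22.3% downward and 19.1% upward, and 33.8% and 15.9% after each array was centred on its median, so these counts move with the scaling. After centring, the replication list had 29 downward and 1 upward. No member was called among 34 mitosis genes (3 at an unadjusted p below 0.05, all higher), 41 lysosome genes (15, 10 higher and 5 lower) and 23 integrins (8, 3 higher and 5 lower). The same held for 20 dendritic cell genes (2), 14 erythroid and megakaryocyte genes (1), 14 genes of the Myc and Max network (3), and 5 D cyclins and their kinases (2). Over all genes, 2912 of 19937 had an unadjusted p below 0.05 in either direction.

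**Figure D5:**
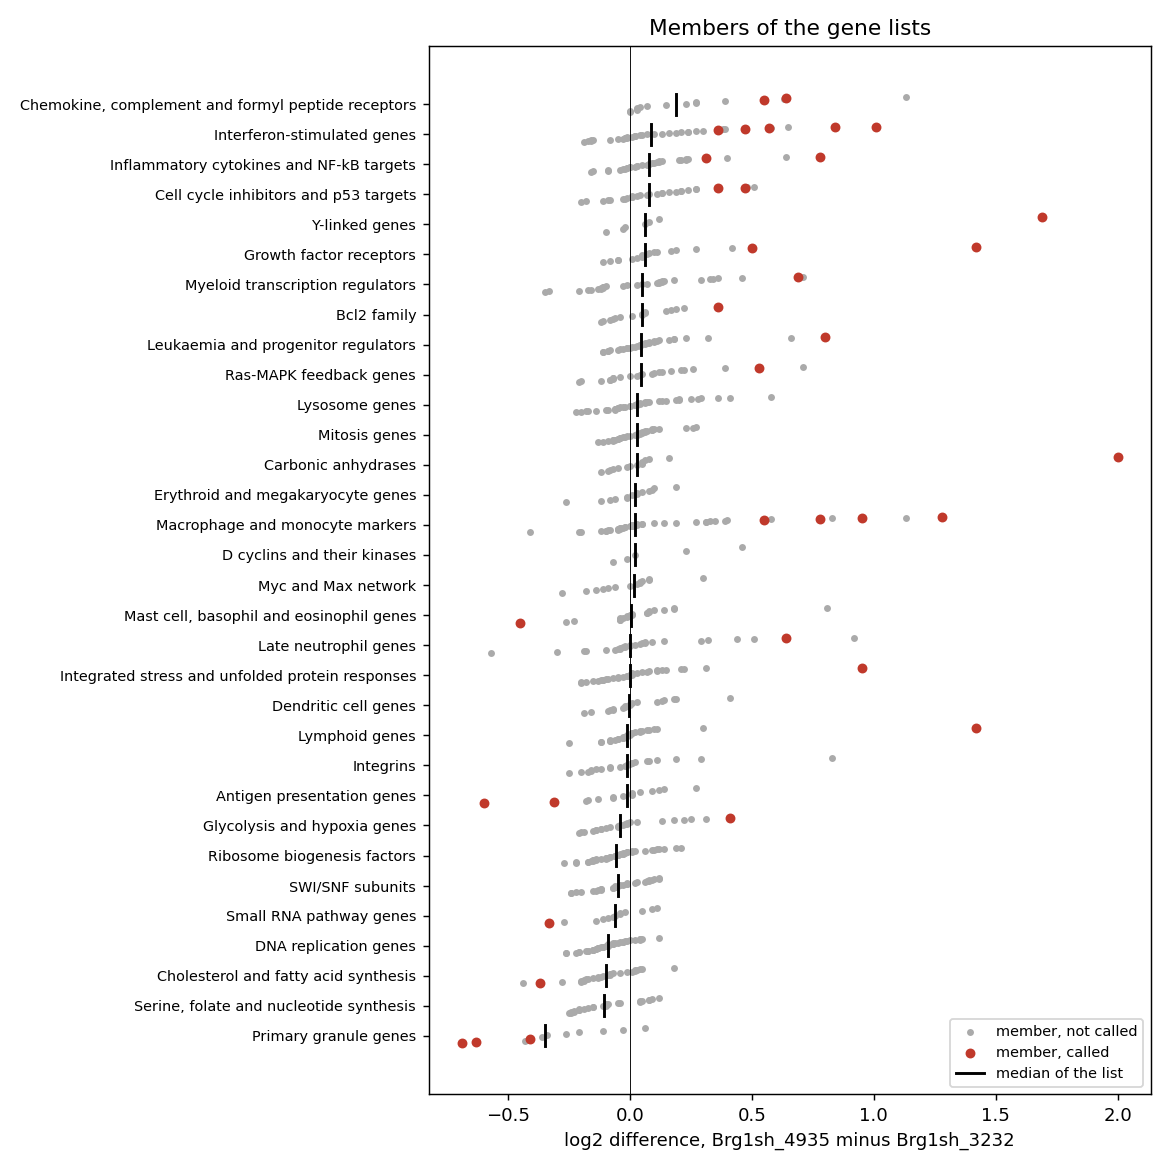
Log2 difference (horizontal axis, Brg1sh_4935 minus Brg1sh_3232) of each measured member of the 32 gene lists (vertical axis). Red points are called members, grey points members without a call, and black bars list medians. The primary granule list has the lowest median, -0.35, and the chemokine, complement and formyl peptide receptor list the highest, 0.19.

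MicroRNA genes are considered apart, since hairpins and microRNAs pass through the same machinery: Drosha cuts the primary transcript, exportin-5 carries hairpins to the cytoplasm, and Dicer and Argonaute complete and use the small RNA. A microRNA recognises targets mainly through its seed, bases 2 to 8. Of 296 microRNA genes on the array, 270 matched RefSeq, and 4 of the 296 were called (1.35%), all higher with Brg1sh_4935. That share is near the 1.02% of all genes, so the calls are described for these loci and not as a result about microRNAs. They lay outside the rule for naming genes and were named after their values were seen. The mature forms, from RefSeq, build GRCm38.p6, are shown because 3 of the 4 share a seed, which is in capitals. Mir15a gives the form at chr14:61632075-61632096 on the - strand, Mir15b at chr3:69009775-69009796 on the + strand, Mir16-2 at chr3:69009918-69009939 on the + strand and Mir181a-1 at chr1:137966468-137966490 on the + strand.
mmu-miR-15a-5p: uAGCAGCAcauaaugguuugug
mmu-miR-15b-5p: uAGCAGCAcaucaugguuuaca
mmu-miR-16-5p: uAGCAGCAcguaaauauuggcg
mmu-miR-181a-5p: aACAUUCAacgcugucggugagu
The array measures whole-transcript RNA over these loci, so the values do not separate the mature form from its precursors.

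Mir15a read 10.03 and 10.05 with Brg1sh_4935, and 9.40 and 9.33 with Brg1sh_3232, beside a control mean of 9.43 (0.67, SE 0.09, adjusted p = 0.0132). Mir15b read 7.53 and 7.57 against 6.52 and 6.96, with 7.13 in the control (0.81, SE 0.14, adjusted p = 0.0433). Mir16-2, which lies beside Mir15b, read 5.99 and 6.07 against 5.20 and 5.42, with 5.71 in the control (0.72, SE 0.09, adjusted p = 0.0107). Its values lay below those of Epx, 6.09 to 6.29, a marker given above as low. For Mir15b and Mir16-2 the control lay between the hairpins, and for Mir15a it lay at the level of Brg1sh_3232. Mir16-1, which carries the same mature sequence as Mir16-2, read 7.04 and 6.90 against 6.60 and 6.68, and its 0.34 was not called (adjusted p = 0.11). Other genes of that seed were not called: Mir195a was at 0.14 (adjusted p = 0.422) and Mir497 at 0.03 (0.865). Brg1sh_3364 resembled Brg1sh_4935 here, at 9.96 and 9.99 for Mir15a and at 7.31 and 7.43 for Mir15b.

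Enclosing genes were found for Mir15b, Mir16-2 and Mir16-1 and were not called. Smc4, a condensin subunit whose gene encloses Mir15b and Mir16-2, was at -0.03 (adjusted p = 0.854), and Dleu2, the long noncoding RNA around Mir16-1, was at 0.17 (0.794). Mir181a-1 read 6.29 and 6.34 against 5.82 and 5.84 (0.48, SE 0.07, adjusted p = 0.0198), around the low level of Epx, 6.09 to 6.29. No other gene of its seed was called, with Mir181b-1 at 0.34 (0.551). Of 13 genes of the small RNA pathway, 1 was called, lower (background 0.411%). This was Xpo5, exportin-5, at 10.53 and 10.51 against 10.86 and 10.84 (-0.33, SE 0.05, adjusted p = 0.017), with a control mean of 11.16. Without Brg1sh_4935 replicate 2, the adjusted p was 0.167 for Mir15a, 0.261 for Mir15b, 0.144 for Mir16-2, 0.218 for Mir181a-1 and 0.174 for Xpo5. The difference of Mir15b was 0.58 without Brg1sh_3232 replicate 1.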

How the data were processed

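Total RNA of RN2 cells was measured on Affymetrix arrays. The authors deposited 1 log2 value per probe set and array, computed by RMA according to the submitters' processing notes. Neither its version nor the array's build is named there, and scanner files were not analysed here. Array medians lay between 7.39 and 7.49, and precision is limited by the number of arrays.

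Of 34760 probe sets, 21640 had 1 symbol in the platform annotation (whose symbols can be old), 1321 several and 11799 none; 21553 were found in RefSeq (GRCm38.p6), and 0 symbols changed. Each of 19937 genes kept its probe set with the highest mean, with no filter on dim genes. Differences were fitted with limma 3.58.1 (R 4.3.3) to all 4 groups (5 residual and 3.85 prior degrees of freedom), two-sided, and a call needs an adjusted p (Benjamini-Hochberg) below 0.05. Errors are standard errors unless given as SD.

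The members and the 32 gene lists (806 of 880 entries measured) were chosen with earlier results of these data known. Named genes are 12 fixed ones, the 20 largest called, separated differences each way (without predicted, clone, small RNA and receptor-segment names), and up to 4 called members per list, or the 1 of smallest p. Alternatives were other scalings, filters, probe set rules, variance models, a replicate block and leaving out arrays.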

Additional observations from a re-analysis of the deposited data

How the results depend on the processing

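The 204 called genes became 311 after a further quantile normalization, 394 without genes below the median level, 18 over every deposited row, 349 with array weights, 80 without Brg1sh_3364, 378 without the Rluc arrays and 25 at an adjusted p below 0.01. With the replicate number as a block they were 382, of which 187 were among the 204; deviations of replicate 1 in the 2 hairpins had r = -0.02 over genes (-0.07 to 0.19 over all pairs of groups), and the labels do not say that the numbers pair the arrays. The 17 large genes became 8 over every deposited row, 8 without Brg1sh_3364, 6 at 0.01, 101 at a size of at least 0.5 and 4 at 1.5. The fit of the 4 arrays alone called 0 with 3157 genes at an unadjusted p below 0.05. Leaving out single arrays gave 8 to 467 called genes, 4 to 22 large ones and a Smarca4 difference of -0.17 to 0.06. Csf1r, near 0 throughout, was at -0.01 with centred arrays and at -0.04 to 0.06 without single arrays. With centred arrays 55.4% of the calls were higher with Brg1sh_4935, against 59.8% as reported. The causes of these changes were not tested. With 2 arrays a side and no probe-level background, small differences and dim genes stay poorly bounded.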

Other observations

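Probe sets of the same gene did not always give the same difference, and these called genes were chosen after their values were seen. Lrrk2, a kinase, was at 0.73 by one probe set and 0.09 by the other, Snora21, a small nucleolar RNA, at -0.64 and 0.14, Etfbkmt at 0.53 and 0.01, and Psd3 at 0.46 and -0.01. Tmem97, a sterol-regulated membrane protein, was at -0.38 and -0.31 by its probe sets, and Ahnak2 at 0.50 and 0.49.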
